A study of Mus musculus with 8 samples.

Results

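Chromatin modifiers and remodelers were followed here as 61 genes in the pancreas of wild-type mice and of mice with a deletion of Daxx. Daxx is a chaperone that deposits the histone variant H3.3. The genes were chosen by name: symbols beginning with Kdm, Kmt, Setd, Hdac or Chd and a digit, or with Smarc. Of 66 listed genes with such a symbol, Kdm1a, Kdm5c, Kdm5d and Kdm6a were left out by the rule. Kdm8 fell under the floor, a mean normalized count of 10 over all 8 libraries, with a mean of 7.07. The remaining 61 are members of 10468 genes tested and 11789 listed. The rule uses names and mean levels and no difference between the genotypes, but it was set with earlier results of these data known.

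RNA was sequenced from the whole pancreas of 4 wild-type mice and 4 mice labelled Daxxfl/flPdx1-CreTg, all 6 weeks old, with 2 females and 2 males per genotype. No label gives the sex of a library. The Cre recombinase is driven by the Pdx1 promoter, which is active in the progenitors of pancreatic epithelium, so blood vessel, immune and stromal cells are not its targets. Floxed mice without Cre and mice with Cre alone were not analysed here, so the loss of Daxx, the floxed allele and the transgene cannot be told apart.

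Lysine methyltransferases of the Kmt and Setd families add methyl groups to histone tails and to some other proteins, and Kdm demethylases remove them. Histone deacetylases (Hdac) take off acetyl groups, usually inside corepressor complexes such as NuRD, SIN3, NCoR and CoREST. Chd and Smarc ATPases burn ATP to slide, space or evict nucleosomes, and the other Smarc genes encode the scaffold and accessory subunits of SWI/SNF (BAF) remodelers. Daxx itself is known to bind histone deacetylases.

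The libraries held 7705789 to 10517508 reads on listed genes. Daxx (ENSMUSG00000002307.15) stood at 39.7, 58.7, 46.7 and 45.2 in wild-type libraries 1 to 4 and 26.8, 23.3, 29.2 and 32.5 in Daxx-deleted libraries 1 to 4, and its genotypes did not overlap. The mean normalized count was 47.6 ± 8.02 (wild type) against 28.0 ± 3.88 (Daxx-deleted; SD, n = 4 each). The log2 difference was -0.74 ± 0.20 (exact two-sided permutation p = 0.0286, the smallest that 70 relabellings allow; limma adjusted p = 0.9997). Here and below, the ± after a log2 difference of a gene is limma's standard error, and the ± after a mean is an SD. All 14 acinar markers were measured, with summed normalized counts of 5027330 to 5833130 (wild type) and 4107750 to 5964420 (Daxx-deleted), so the tissue read as pancreas. The summed markers of ductal (2008 to 2372 against 2030 to 2267), endothelial (661 to 853 against 688 to 853) and stromal cells (3279 to 5027 against 3509 to 5683) overlapped between genotypes. So did those of endocrine (2209 to 8010 against 1760 to 7697), myeloid (405 to 628 against 327 to 764) and fat cells (331 to 621 against 329 to 906). Of 10 lymphoid markers only Jchain was measured, at 0 to 19.6 in wild type and 2.10 to 69.97 in Daxx-deleted libraries. The summed proliferation markers were 244 to 301 against 283 to 539. Daxx-deleted library 2 held the highest proliferation, myeloid, fat cell and Jchain values of the 8, and their part in the results was not tested. No label says that a library is more than 1 mouse, and p-values measure only the spread between these libraries.

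No chromatin modifier or remodeler passed the test between genotypes. In a limma fit across all tested genes, 0 of 61 members had an adjusted p under 0.05, beside 0 of 10468 genes (0%). At an unadjusted p under 0.05 there were again 0 of 61 members, beside 302 of all genes (2.88%). With edgeR 0 members were called and 0 had an unadjusted p under 0.05, and the same held for DESeq2, which called 1 gene of the whole table (0.00955%) where edgeR called 0 (0%). Over all genes 299 had an unadjusted p under 0.05 with edgeR and 219 with DESeq2. The lowest adjusted p of a member was 0.9997. Log2 differences ran from -0.34 for Smarcd3 to 0.61 for Smarca1, with 28 members above 0 and 33 below. The median was -0.024, beside -0.0074 over all tested genes, of which 48.1% lay above 0.

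How much change these 8 libraries could have missed is given by the intervals. The 95% interval of the genotype difference lay wholly within 1.5-fold in either direction for 48 of 61 members, 78.7%, beside 56.1% of all tested genes. Among genes of like level (the 3937 tested genes within the middle 50% of member levels) the share was 84.3%, and among the 31 members in that range 87.1%. The interval lay within 2-fold for 58 members. The members outside 2-fold, Chd5, Smarca1 and Smarcd3, were the lowest of the group in normalized counts, with means of 10.7, 12.4 and 10.99. In whole tissue, fewer cells of a type and less RNA per cell cannot be told apart.

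**Figure D1:**
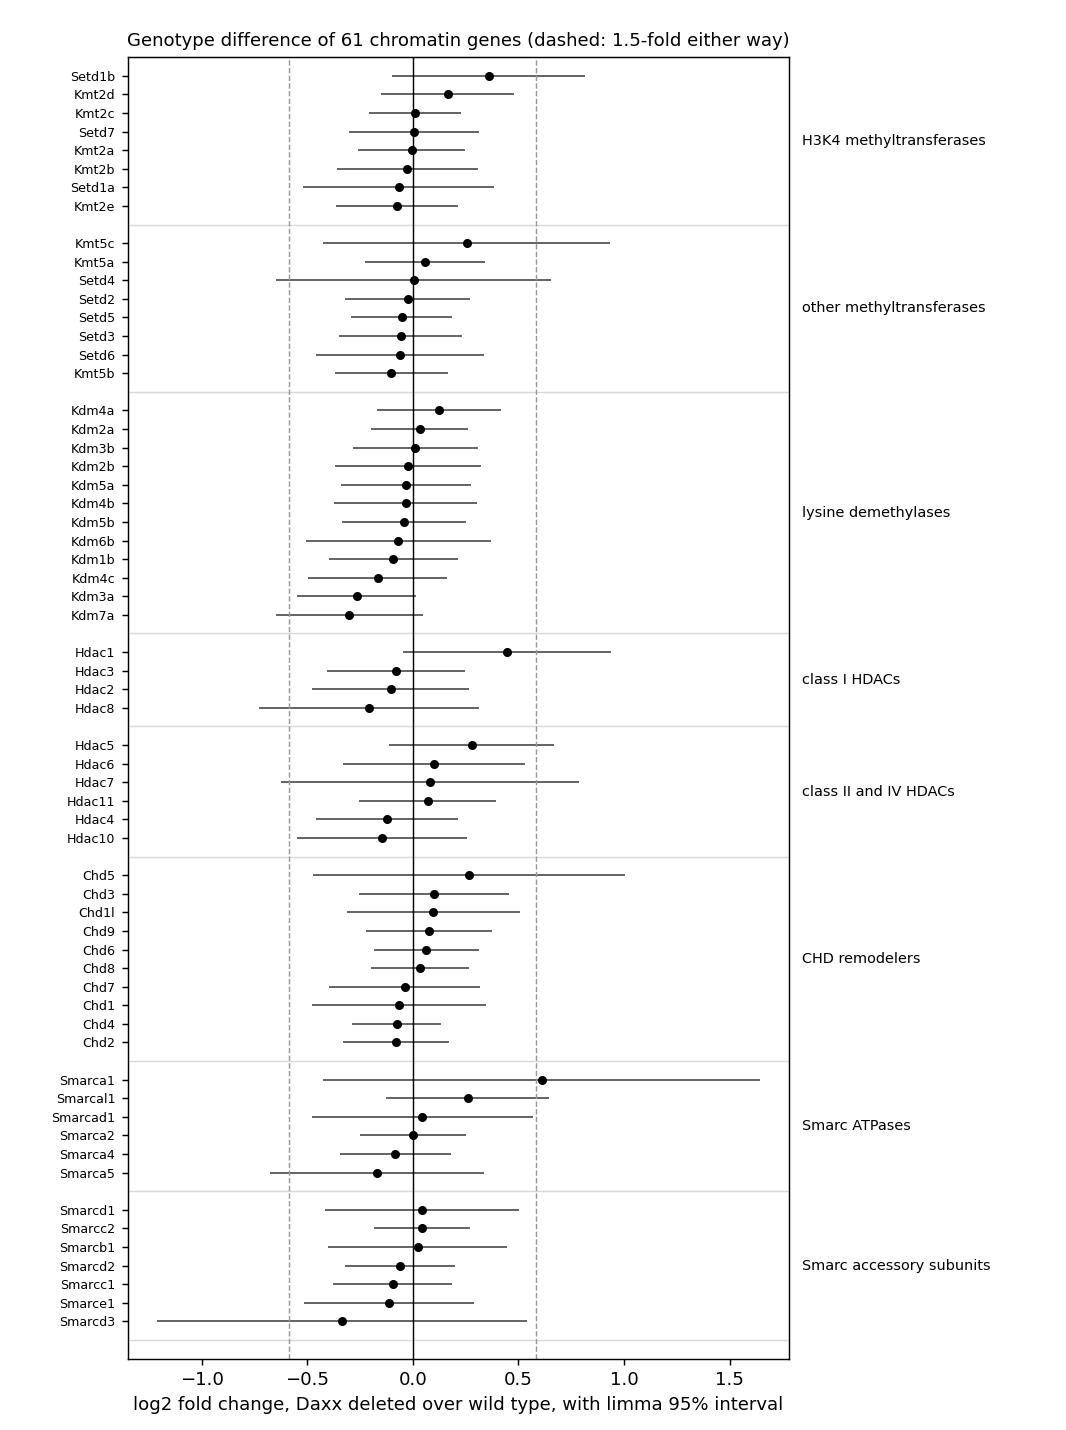
Log2 difference between Daxx-deleted and wild-type pancreas for each of the 61 members, grouped by role, with 95% intervals from limma (n = 4 libraries per genotype). The points run from -0.34 (Smarcd3) to 0.61 (Smarca1), and no member passed the test.

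Levels are given as normalized count per kb of exon, counting every base that is exon in any annotated transcript of the gene. This allows only a rough comparison of genes. A gene whose transcripts in this tissue are shorter than that length reads too low. The median member stood at 17.0 per kb, beside 14.8 over all tested genes, and 35 of 61 members lay above the median of all genes. Only Smarcc2 (132 per kb), Hdac11 (111) and Chd4 (101) stood in the top 10% of tested genes. At the other end were Chd5 (1.12), Smarca1 (2.02), Smarcd3 (2.15) and Setd4 (3.20).

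**Figure D2:**
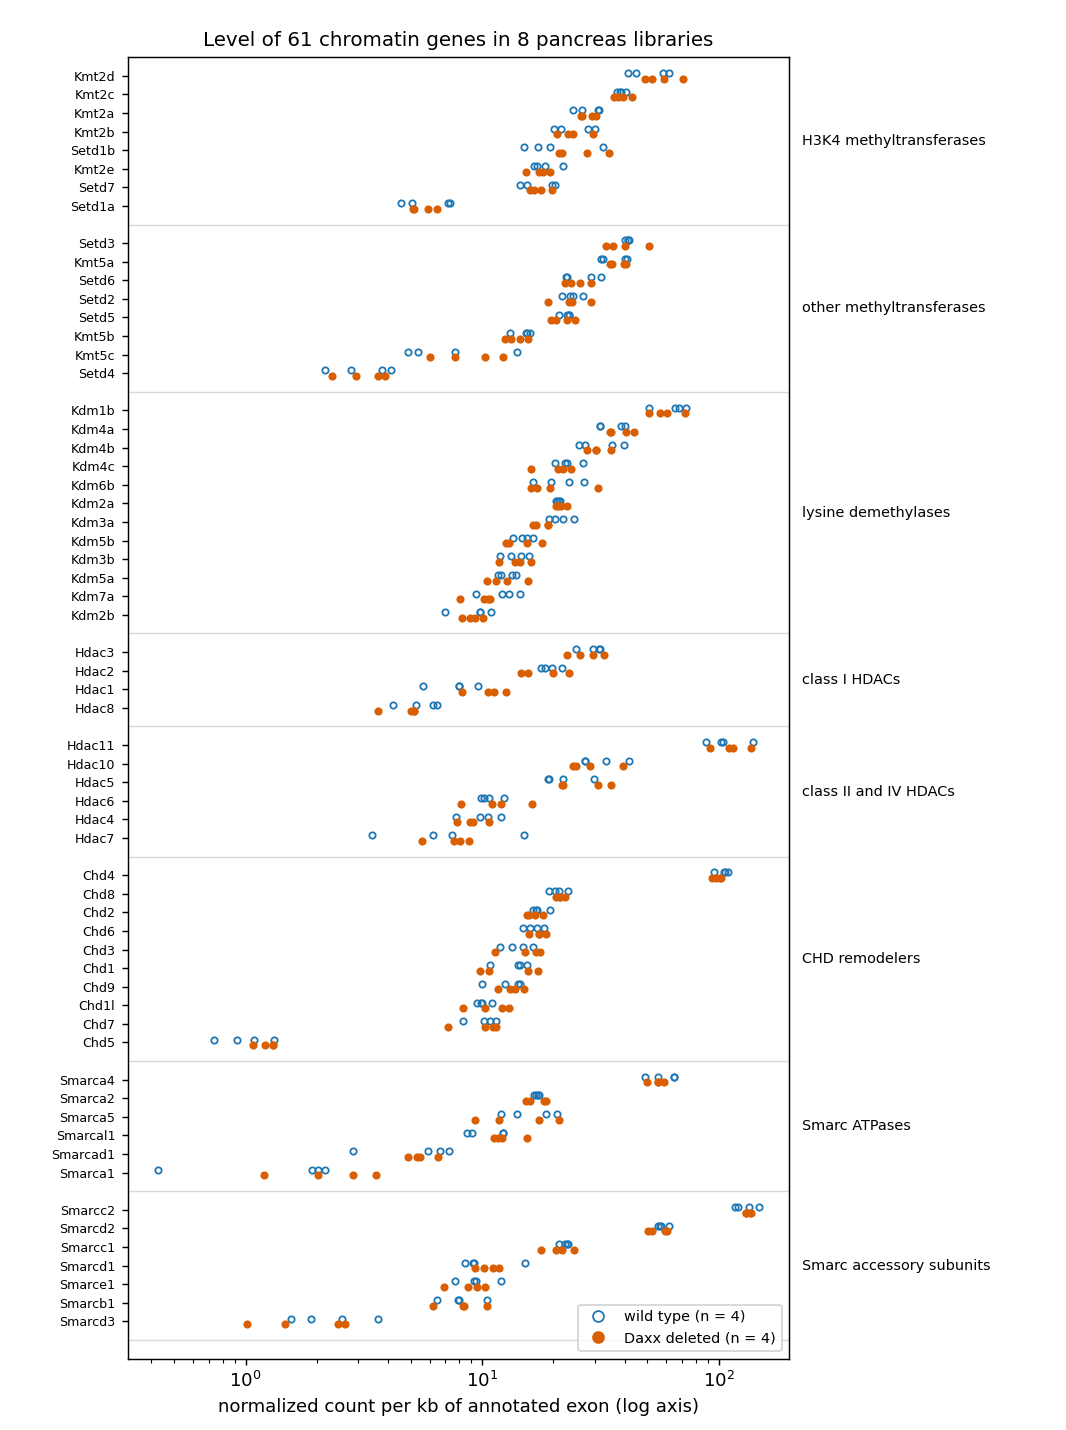
Normalized count per kb of exon (log axis) of the 61 members by role, with a point for each of the 8 libraries coloured by genotype. Smarcc2, Hdac11 and Chd4 lie highest at 101 to 132 per kb, and Chd5 lowest at 1.12.

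The 8 H3K4 methyltransferases place methyl marks on lysine 4 of histone H3 at promoters and enhancers. Kmt2d, an enhancer methyltransferase (ENSMUSG00000048154.17; chr15:98831669-98871204, minus strand), was the highest at 54.5 per kb, above its paralogue Kmt2c (38.9) in 8 of 8 libraries. Kmt2a (28.1) and Kmt2b (24.6), whose products act largely at promoters, followed, and Setd1a was the lowest at 5.84. Between them lay Setd1b (23.6), Kmt2e (18.0) and Setd7 (17.5), which also methylates proteins other than histones. Of the 8, 4 lay above 0 and 4 below between genotypes, and 7 had an interval within 1.5-fold. Setd1b, the catalytic subunit of a complex that makes most promoter H3K4 trimethylation (ENSMUSG00000038384.16; chr5:123142193-123168629, plus strand), had normalized counts of 208, 393, 233 and 181 in wild-type libraries 1 to 4 and 334, 256, 413 and 264 in Daxx-deleted libraries 1 to 4. Wild-type library 2 was the second highest of all 8, behind Daxx-deleted library 3, and the other wild-type libraries lay below every deleted library. The log2 difference was 0.36 ± 0.21 (limma unadjusted p = 0.111, exact permutation p = 0.257), and the 95% interval of the fold ran from 0.938 to 1.75. The difference was 0.59 without wild-type library 2, and 0.22 without wild-type library 4 or Daxx-deleted library 3. Kmt2d spanned 827 to 1223 over wild-type libraries, against 969.7 to 1403 over the deleted ones, a log2 difference of 0.17 ± 0.14. For Kmt2e, a reader of methylated H3K4 with little activity of its own, the difference was -0.075 ± 0.13.

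The other 8 methyltransferases act on lysine 36 of H3, lysine 20 of H4 or proteins outside chromatin. The highest was Setd3 (40.6 per kb), known as the actin histidine methyltransferase, followed by Kmt5a (37.0), which places the first methyl group on H4 lysine 20. Setd3 was above Kmt5a in 6 of 8 libraries, so their order is not beyond the spread. Setd6 (25.9), Setd2 (23.9), which makes H3K36 trimethylation, and Setd5 (22.3) lay close together. Kmt5b (14.5), Kmt5c (8.53) and Setd4 (3.20) were lower. Kmt5c, which adds the last methyl groups to H4 lysine 20 (ENSMUSG00000059851.15; chr7:4740115-4747514, plus strand), had 30.8, 56.1, 21.4 and 19.5 in wild-type libraries 1 to 4 and 41.3, 30.8, 48.9 and 24.1 in Daxx-deleted libraries 1 to 4. Its highest and lowest values, 2.88-fold apart, were both wild type, and its log2 difference was 0.25 ± 0.32 (limma unadjusted p = 0.433). Without wild-type library 2 that difference was 0.56, and without wild-type library 4 it was 0.067. Kmt5b, its paralogue, differed by -0.10 ± 0.12 and Setd5 by -0.053 ± 0.11. In this role 3 members lay above 0 and 5 below, and 6 of 8 intervals were within 1.5-fold.

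Of the 12 lysine demethylases 3 lay above 0 and 9 below, with a median log2 difference of -0.037, and 11 had an interval within 1.5-fold. Kdm1b, a flavin-dependent H3K4 demethylase, was far the highest at 62.1 per kb, at percentile 88.2 of tested genes. Kdm4a (37.0) and Kdm4b (31.5), which act on trimethylated H3K9 and H3K36, came next. The H3K27 demethylase Kdm6b stood at 21.2, the H3K4 demethylases Kdm5b at 14.9 and Kdm5a at 12.6, and Kdm2b was the lowest at 9.25. Kdm2a, an H3K36 demethylase, had the smallest spread of the members. Its libraries differed by at most 1.11-fold, with a coefficient of variation of 3.59% and means of 302 ± 5.42 (wild type) against 309 ± 14.7 (Daxx-deleted; SD, n = 4 each). Counting error alone would give 5.72%, so the small spread is not shown to be a trait of Kdm2a. Kdm3a, an H3K9 demethylase also known as a target of hypoxia signalling (ENSMUSG00000053470.13; chr6:71588972-71632990, minus strand), had 181, 167, 201 and 158 in wild-type libraries 1 to 4 and 157, 157, 139 and 134 in Daxx-deleted libraries 1 to 4. Every Daxx-deleted library lay below every wild-type library, with a narrow gap between 158.5 and 156.9. Kdm3a was the only member whose genotypes did not overlap, 1 of 61 or 1.64%, beside 196 of all tested genes (1.87%; 1.04% lower and 0.831% higher in Daxx-deleted pancreas). The means were 177 ± 18.4 (wild type) against 147 ± 11.8 (Daxx-deleted; SD, n = 4 each), a log2 difference of -0.27 ± 0.13 (limma unadjusted p = 0.0586, adjusted p = 0.9997; exact permutation p = 0.0286, the smallest possible). With equal library totals, quantile scaling or removal of a GC trend its genotypes overlapped. Leaving out wild-type library 2 brought the members without overlap to 4 (5.34% of all genes then had none), and leaving out wild-type library 1, 3 or 4 or Daxx-deleted library 4 brought them to 2, beside 3.72% to 4.17% of all genes. Kdm7a, a demethylase of H3K9 and H3K27 (ENSMUSG00000042599.8; chr6:39136623-39206789, minus strand), had 122, 95.2, 145 and 131 in wild-type libraries 1 to 4 and 102, 108, 81.2 and 106 in Daxx-deleted libraries 1 to 4. Wild-type library 2 lay among the deleted libraries and the other wild-type libraries lay above them, a log2 difference of -0.30 ± 0.16 (limma unadjusted p = 0.0807). Kdm4c, of the family that acts on trimethylated H3K9 and H3K36, differed by -0.17 ± 0.15.

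**Figure D3:**
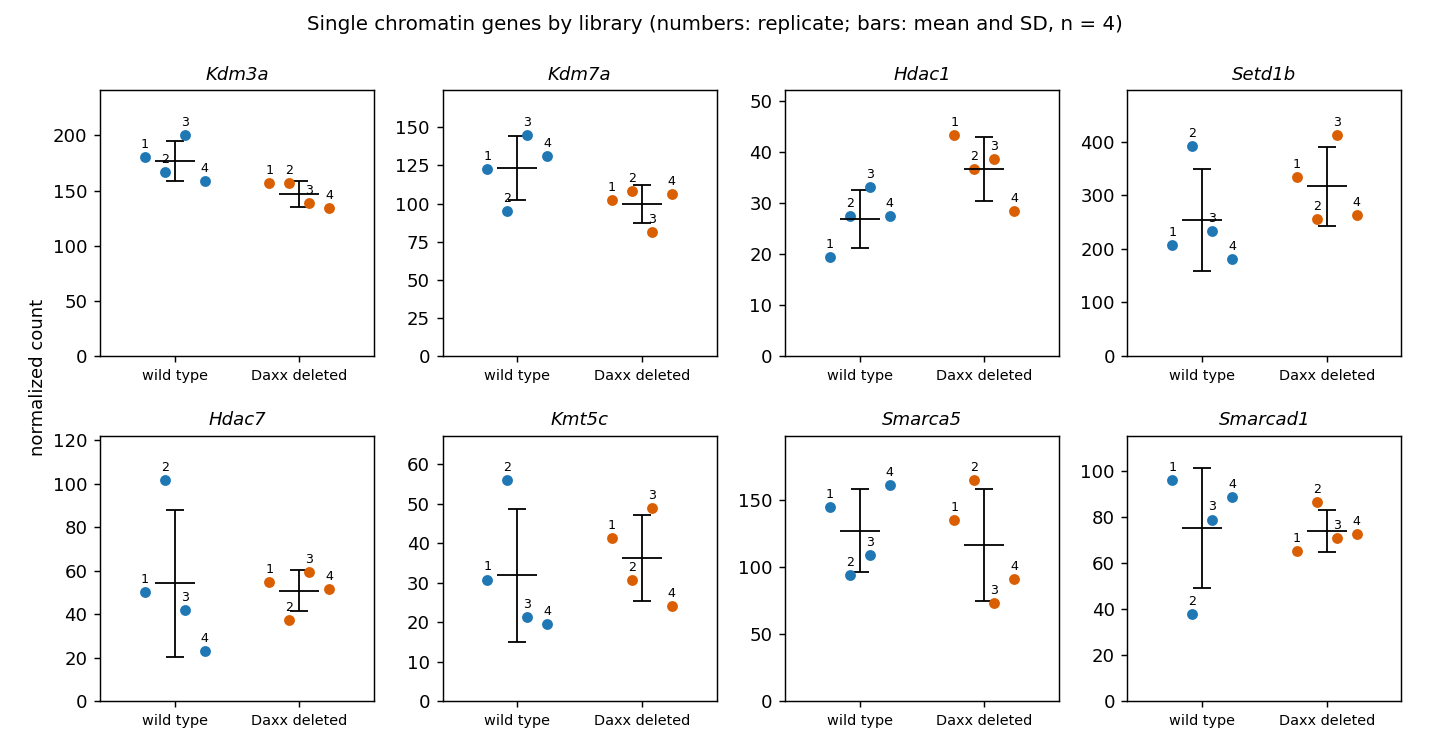
Normalized counts of single members in each of the 8 libraries, with bars at the genotype means and a point per library. The genotypes of Kdm3a do not overlap, from 158.5 upward in wild type and up to 156.9 in Daxx-deleted pancreas, and those of the other plotted members do.

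The class I deacetylases Hdac1, Hdac2 and Hdac3 are the catalytic subunits of nuclear corepressors. Hdac3, the NCoR deacetylase, was the highest at 28.5 per kb, and Hdac8 the lowest at 5.13. Hdac1 (ENSMUSG00000028800.15; chr4:129516104-129542713, minus strand) had 19.4, 27.4, 33.1 and 27.4 in wild-type libraries 1 to 4 and 43.4, 36.7, 38.5 and 28.3 in Daxx-deleted libraries 1 to 4. Daxx-deleted library 4 lay inside the wild-type range and the other deleted libraries above it. The means were 26.8 ± 5.64 (wild type) against 36.7 ± 6.26 (Daxx-deleted; SD, n = 4 each), a log2 difference of 0.45 ± 0.23 (limma unadjusted p = 0.0705, exact permutation p = 0.0571), with a 95% interval of 0.971 to 1.91-fold. Its partner Hdac2 differed by -0.11 ± 0.17 and Hdac8 by -0.21 ± 0.24, and 2 of the 4 intervals were within 1.5-fold.

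Class II and class IV deacetylases include signal-responsive corepressors that shuttle between cytoplasm and nucleus (Hdac4, Hdac5 and Hdac7), the tubulin deacetylase Hdac6, the polyamine deacetylase Hdac10 and the fatty-acyl hydrolase Hdac11. Hdac11 stood at 111 per kb, 3.60-fold above the next of its role, Hdac10, and above it in 8 of 8 libraries. Hdac5 (ENSMUSG00000008855.17; chr11:102194432-102230166, minus strand) had 167, 261, 193 and 168 in wild-type libraries 1 to 4 and 191, 193, 271 and 308 in Daxx-deleted libraries 1 to 4. Wild-type library 2 and Daxx-deleted libraries 3 and 4 were high and the rest lower, a log2 difference of 0.28 ± 0.18 (limma unadjusted p = 0.143). Hdac7 had 50.2, 102, 41.9 and 23.0 in wild-type libraries 1 to 4 and 54.7, 37.5, 59.4 and 51.4 in Daxx-deleted libraries 1 to 4. Wild-type library 2 was the highest of all and wild-type library 4 the lowest, 4.42-fold apart. Hdac10 differed by -0.15 ± 0.19 and Hdac4 by -0.12 ± 0.16, and 4 of 6 intervals were within 1.5-fold.

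Among 10 Chd remodelers, Chd4, the NuRD ATPase (ENSMUSG00000063870.12; chr6:125095981-125130591, plus strand), stood at 101 per kb, 6.94-fold above its alternative Chd3. Its log2 difference was -0.076 ± 0.10, and its 95% interval ran from 0.822 to 1.09-fold. Chd5, a further NuRD ATPase known mainly from neurons, was close to the floor at a mean of 10.7 and differed by 0.27 ± 0.34. Chd2 differed by -0.078 ± 0.12. In level, Chd8 (21.2 per kb) was next after Chd4, and Chd2, Chd6, Chd3, Chd1, Chd9, Chd1l and Chd7 followed between 10.1 and 17.0. In this role 6 members lay above 0 and 4 below, and 9 of 10 intervals were within 1.5-fold.

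Of the 6 Smarc ATPases and helicases, Smarca4 (BRG1) was the highest at 56.7 per kb, 3.32-fold above the other SWI/SNF ATPase, Smarca2. The ISWI ATPase Smarca1 (ENSMUSG00000031099.16; chrX:47809368-47892974, minus strand) had 12.3, 2.61, 11.7 and 13.3 in wild-type libraries 1 to 4 and 12.4, 17.5, 21.9 and 7.35 in Daxx-deleted libraries 1 to 4. Wild-type library 2, with 2 reads, was the lowest of the 8, and the deleted libraries lay on both sides of the remaining wild-type ones. The log2 difference of 0.61 ± 0.48 was the largest of the group with all libraries, its 95% interval ran from 0.748 to 3.11-fold, and without wild-type library 2 it was 0.14. The other ISWI ATPase, Smarca5 (ENSMUSG00000031715.14; chr8:80698507-80739497, minus strand), had 145, 93.9, 109 and 161 in wild-type libraries 1 to 4 and 135, 165, 72.9 and 91.3 in Daxx-deleted libraries 1 to 4, with the lowest value in Daxx-deleted library 3 and a log2 difference of -0.17 ± 0.24. Smarcal1, which rewinds DNA at stalled replication forks, differed by 0.26 ± 0.18 (limma unadjusted p = 0.170). Among the 7 accessory subunits, Smarcc2 (ENSMUSG00000025369.15; chr10:128459248-128490482, plus strand) was the highest member of the whole group at 132 per kb. Smarcd2 (56.6) and Smarcc1 (21.8) came next, and Smarcb1, a core subunit of SWI/SNF, stood at 8.29. Smarcd3 differed by -0.34 ± 0.41, Smarce1 by -0.11 ± 0.19 and Smarcc1 by -0.095 ± 0.13. Intervals within 1.5-fold numbered 3 of 6 ATPases and helicases and 6 of 7 accessory subunits.

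The median member differed by 1.55-fold between its highest and lowest library. The highest library exceeded the lowest by less than 1.5-fold for 26 of 61 members and by more than 2-fold for 9: Smarca1, Hdac7, Smarcd3, Kmt5c, Smarcad1, Setd1b, Smarca5, Hdac1 and Hdac6. The median biological coefficient of variation, edgeR's estimate of the spread within genotypes beyond counting error, was 14.4% for members and 16.2% for all tested genes. Over genes of like level it was 14.02%, and over the members in that range 13.4%. Smarcad1, a nucleosome remodeler with a role in DNA repair, had 96.1, 37.8, 78.9 and 88.5 in wild-type libraries 1 to 4 and 65.0, 86.6, 70.8 and 72.4 in Daxx-deleted libraries 1 to 4. Wild-type library 2 held its lowest value, as it did for Smarca1.

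Many of these genes come as paralogues that take the same place in a complex. Their ratio within a library was taken after adding 1 to each normalized count. Apart from that added count, which matters most for low genes, it does not depend on how libraries were scaled. In 12 of 16 pairs, compared per kb, the same paralogue was the higher in all 8 libraries. Smarca4 exceeded Smarca2 by 2.91- to 3.90-fold and Chd4 exceeded Chd3 by 5.51- to 8.96-fold. Smarcc1, the other SWI/SNF scaffold, was at 0.166 of Smarcc2, and Smarcd1 at 0.187 of Smarcd2. The ratio of Smarca5 to Smarca1 was the least steady, from 2.54 to 20.7. The latter was in wild-type library 2 with its 2 Smarca1 reads, where the added count lowers the ratio.

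The genotypes did not overlap in 1 of 16 ratios (6.25%), that of Hdac1 to Hdac2, paired deacetylases of NuRD, SIN3 and CoREST. No share over other gene pairs was computed to set beside it, so this count is not shown to exceed a background. Among single genes the share was 1.87%. On the log2 scale the ratio of Hdac1 to Hdac2 was -1.30 ± 0.40 for wild-type mice and -0.75 ± 0.20 for Daxx-deleted mice (SD, n = 4 each). Hdac2 was the higher of the pair in all 8 libraries, and by less in these Daxx-deleted libraries. The difference of 0.55 is 1.47-fold and was given no test. The genotypes also did not overlap in this ratio after the GC trend described below was removed, with a difference of 0.54. The log2 ratio of Setd1a to Setd1b was -1.74 ± 0.30 for wild-type mice and -2.16 ± 0.17 for Daxx-deleted mice, and that of Kdm3a to Kdm3b was 0.63 ± 0.11 for wild-type mice and 0.35 ± 0.22 for Daxx-deleted mice, both overlapping.

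**Figure D4:**
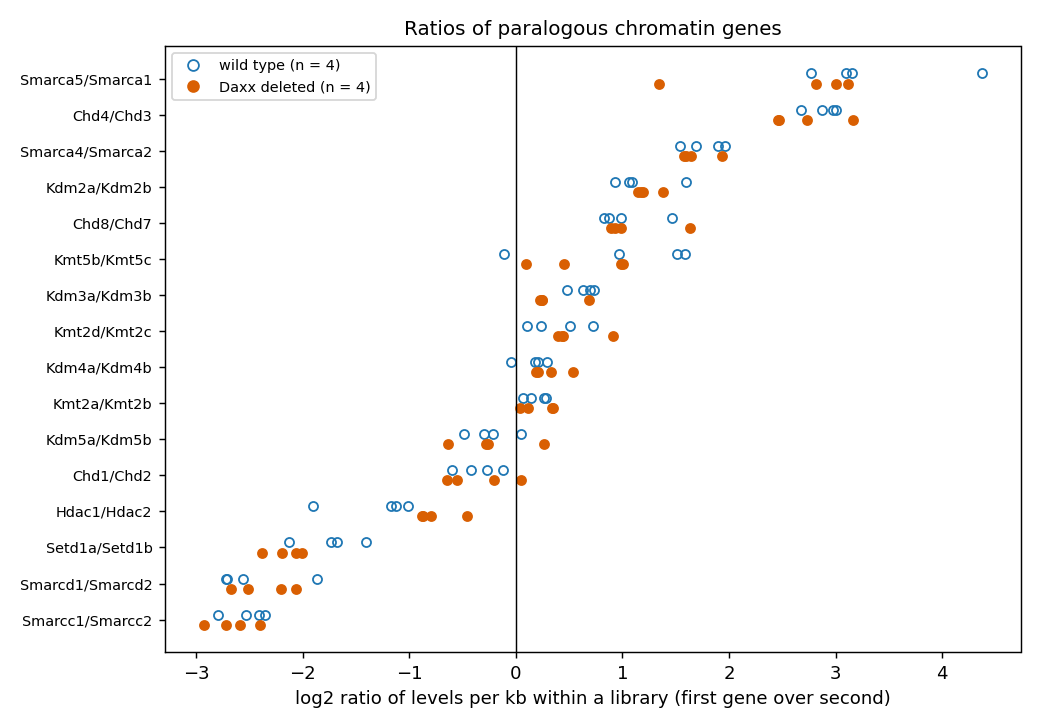
Log2 ratio of the per-kb levels of 16 paralogue pairs in each of the 8 libraries, coloured by genotype, with 1 added to each normalized count. Only the ratio of Hdac1 to Hdac2 does not overlap between genotypes, at -1.30 ± 0.40 for wild-type mice and -0.75 ± 0.20 for Daxx-deleted mice.

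The leading pattern of variation among the members followed the GC content of their transcripts and did not separate the genotypes. The first principal component held 41.3% of the members' variation over the 8 libraries, and its gene loadings had a Spearman correlation of 0.86 with GC content (n = 61 genes, which share libraries and depth). The members' log2 differences between genotypes had a Spearman correlation of 0.30 with GC content, beside 0.091 over all tested genes. Single differences refitted after removal of a GC trend are given below for some members. The part of the GC pattern in them was given no test of its own. Genes at its high-GC end included Hdac7, Kmt5c, Setd1b, Hdac5 and Kmt2d, and genes at its low-GC end Smarca1, Smarcad1, Smarca5, Chd1 and Kdm7a. These were named after their values were seen.

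Base composition can be looked at in a stretch that all 16 ATPase members share, though a stretch need not follow its whole transcript. Each carries the DEAH-type box of the ATPase motor (Asp-Glu-x-His, where x varies). The search asked for alanine, glycine, serine or cysteine at x and for set residues just after the box. It matched once in each coding sequence, and Asp-Glu-x-His without those residues was not looked for. The motor couples ATP hydrolysis to movement along DNA. The paralogue pairs below show how the same kind of box and its surroundings are written. The box has the same 12 bases in Smarca1 and Smarca5. Smarca2 and Smarca4 hold GGC, for glycine, where the other pairs have a codon for alanine. The lines therefore differ in protein sequence as well as in choice of bases. Each line is 60 bases of coding sequence, 5′ to 3′, from GRCm38 with GENCODE M21 transcripts, with the 12 bases of the box in capitals.
Smarca1: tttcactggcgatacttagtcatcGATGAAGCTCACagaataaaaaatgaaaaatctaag
Smarca5: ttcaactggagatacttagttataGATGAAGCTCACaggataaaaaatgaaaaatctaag
Smarca2: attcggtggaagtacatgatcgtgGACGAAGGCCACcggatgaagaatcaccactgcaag
Smarca4: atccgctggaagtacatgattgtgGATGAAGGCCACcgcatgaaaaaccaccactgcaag
Chd1: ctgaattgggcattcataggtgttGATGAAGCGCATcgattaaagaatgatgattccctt
Chd2: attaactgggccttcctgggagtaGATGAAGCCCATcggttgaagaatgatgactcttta
Chd4: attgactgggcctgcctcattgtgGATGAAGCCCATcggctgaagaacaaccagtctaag
Chd3: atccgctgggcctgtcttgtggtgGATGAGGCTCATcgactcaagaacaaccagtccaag
The Smarca1 stretch lies at chrX:47876385-47876444 on the minus strand in exon 7, and that of Smarca5 at chr8:80726211-80726270 on the minus strand in exon 7. Those of Smarca2 and Smarca4 lie at chr19:26681871-26681930 on the plus strand in exon 18 and at chr9:21667166-21667225 on the plus strand in exon 19. Chd1 and Chd2 have theirs at chr17:15738497-15738556 on the plus strand in exon 14 and at chr7:73490595-73490654 on the minus strand in exon 16, and Chd4 and Chd3 at chr6:125108737-125108796 on the plus strand in exon 17 and at chr11:69356938-69356997 on the minus strand in exon 16. The ISWI stretches hold 33.3% (Smarca1) and 30.0% G or C (Smarca5), against 51.7% in Smarca2. At the third base of each codon the shares are 35% in both ISWI genes, 85% in Smarca2 and 80% in Smarca4. Over whole transcripts Smarca1 has 39.5% and Smarca5 40.7% G or C, against 51.1% in Smarca2 and 55.9% in Smarca4. Chd3 has 56.1% against 43.2% in Chd1. Smarca2 is thus of middle GC content among the members.

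The 20 members of highest GC content (at least 55.2%) were then set against the 20 of lowest (at most 48.3%), as the difference of their median deviations in each library on the log2 scale. It was -0.28, 0.44, -0.023 and -0.34 in wild-type libraries 1 to 4 and -0.039, -0.17, 0.39 and 0.074 in Daxx-deleted libraries 1 to 4. Wild-type library 2 and Daxx-deleted library 3 were high, by 1.35-fold and 1.31-fold in favour of GC-rich members, and wild-type libraries 1 and 4 were low. In wild-type library 2, 18 of the 20 GC-rich members lay above their own mean, against 2 in wild-type libraries 1 and 4. The genotypes overlapped, with means of -0.051 ± 0.35 for wild type against 0.064 ± 0.24 for Daxx-deleted mice (SD, n = 4 each). All tested genes, split at the same GC values, gave 0.33 in wild-type library 2, 0.32 in Daxx-deleted library 3 and -0.30 in wild-type library 4, so the pattern was also present over the whole table. Wild-type library 2 had the fewest reads of the 8, 7705789, and Daxx-deleted library 1, with 7721994 reads, had a difference of -0.039. The part of depth, RNA quality or cell makeup in this was not tested.

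**Figure D5:**
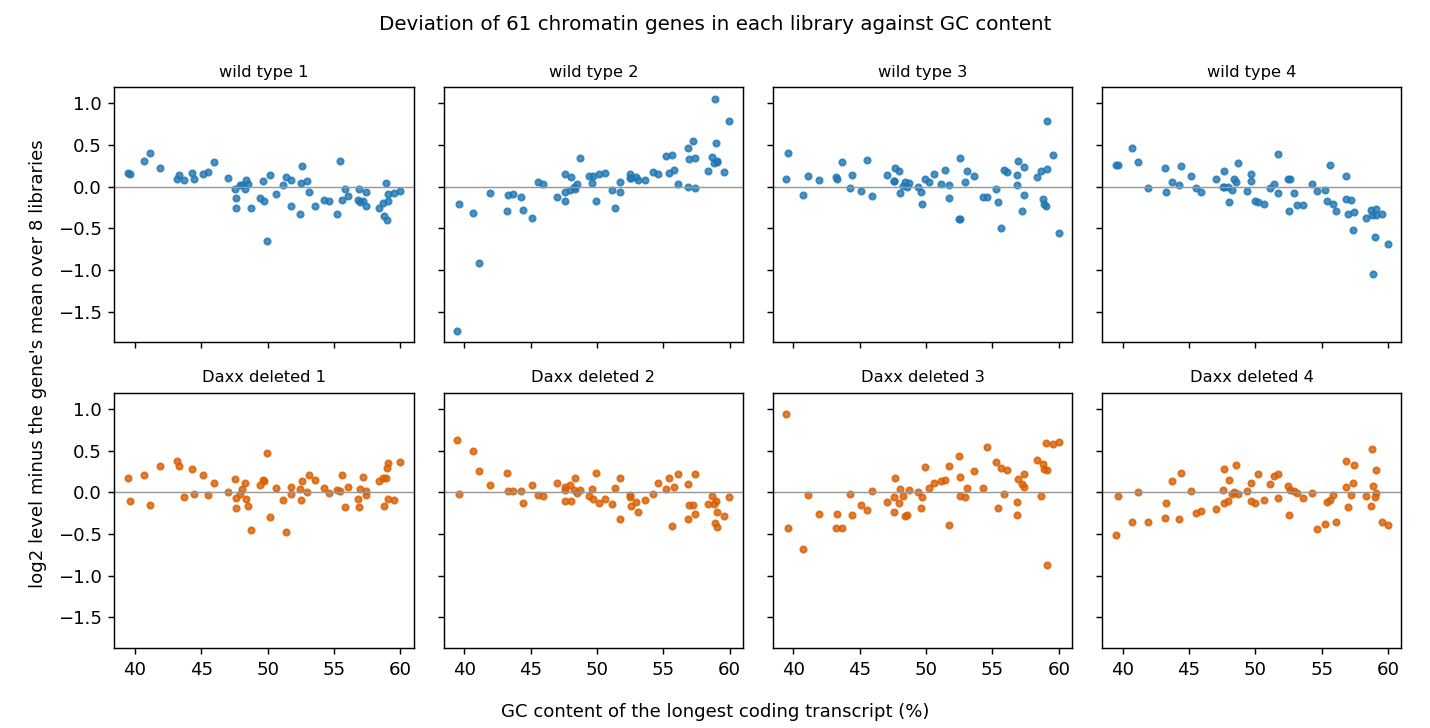
Deviation of each member from its own mean over the 8 libraries (log2 normalized count) against the GC content of its longest coding transcript, a panel per library. GC-rich members lie above GC-poor ones in wild-type library 2 and Daxx-deleted library 3, and below them in wild-type libraries 1 and 4.

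Removing each library's trend on GC content, an alternative chosen after seeing the data, took away 23.8% of the members' sum of squares and lowered the standard error of 59 of 61 members, with the median going from 0.154 to 0.133. It called 0 genes with limma, 0 of 61 members had an unadjusted p under 0.05, and 420 of all genes did. The smallest unadjusted p of a member was then 0.0546, for Setd1b at 0.33 ± 0.16, and Hdac1 stood at 0.46 ± 0.22. Kdm3a was at -0.24 ± 0.12 with overlapping genotypes. Wild-type library 2 and Daxx-deleted library 3 were also left out together, a choice made after their GC pattern was seen. Then 0 genes were called with limma and 2 of 61 members had an unadjusted p under 0.05, beside 367 of 10468 tested genes. These were Setd1b, with a log2 difference of 0.45 ± 0.15, and Kdm7a, with -0.33 ± 0.15. Both were named above at the ends of the GC pattern, and for both wild-type library 2 lay among the deleted libraries. Their p-values in this fit are therefore no separate support for a difference. The genotypes of 4 members then did not overlap (Setd1b, Kdm7a, Kdm3a and Smarcd1), beside 8.41% of all genes with 3 libraries a genotype.

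The partners of these enzymes gave the same picture. Of 131 genes listed as subunits, readers or enzymes of like chemistry outside the name rule, 124 were tested, 0 passed limma's adjusted p and 1 had an unadjusted p under 0.05, beside 2.88% of all genes. Of the 124, 62 lay above 0 and 62 below, with a median log2 difference of 0.0018. Ruvbl2, an ATPase of INO80, had 46.7, 60.0, 44.8 and 42.5 in wild-type libraries 1 to 4 and 29.9, 35.8, 43.7 and 28.3 in Daxx-deleted libraries 1 to 4. The genotypes overlapped, with means of 48.5 ± 7.86 (wild type) against 34.5 ± 6.97 (Daxx-deleted; SD, n = 4 each) and a log2 difference of -0.49 ± 0.20 (limma unadjusted p = 0.0302). Cecr2, also of the ISWI and INO80 partners, differed by -0.29 ± 0.20, and 8 of the 16 lay on each side of 0.

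Hif1an, an asparagine hydroxylase that restrains hypoxia-inducible factor, was the only partner gene whose genotypes did not overlap, beside 1.87% of all genes. It had 227, 259.5, 229 and 222 in wild-type libraries 1 to 4 and 197, 198, 206 and 196 in Daxx-deleted libraries 1 to 4. Each deleted library lay below each wild-type one, a log2 difference of -0.23 ± 0.11 (exact permutation p = 0.0286, the smallest possible; limma unadjusted p = 0.0616). Of the 8 other JmjC proteins, 3 lay above 0 and 5 below, the latter including Uty, which is Y-linked and was at 0 in 4 of 8 libraries. Riox2 differed by -0.25 ± 0.20.

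Sirtuins, the NAD-dependent deacetylases, lay above 0 in 6 of 7 cases, with a median log2 difference of 0.22. None passed the test. Sirt7 differed by 0.24 ± 0.17 and Sirt2 by 0.25 ± 0.15. SIN3, NCoR and CoREST partners lay below 0 in 12 of 16 cases with a median of -0.062, and there Brms1 differed by 0.39 ± 0.22 and Ing1 by -0.39 ± 0.22. NuRD partners lay above 0 in 8 of 10 cases. The 2 below 0 were Mta2 at -0.15 ± 0.14 and the histone-binding Rbbp4 at -0.15 ± 0.12. Over all tested genes 48.1% lay above 0.

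The 12 core COMPASS partners, which assemble with H3K4 methyltransferases, were split 5 above 0 to 7 below, with Dpy30 at -0.49 ± 0.24 and Paxip1 at -0.43 ± 0.21. Paxip1 was at -0.26 without wild-type library 3 and at -0.21 without Daxx-deleted library 4. PRC2, the H3K27 methyltransferase, was split 3 to 5, with its catalytic subunit Ezh1 at -0.19 ± 0.15 and its accessory Phf1 at -0.24 ± 0.19. The H3K79 methyltransferase Dot1l differed by 0.24 ± 0.18 and the H3K36 methyltransferase Nsd1 by -0.028 ± 0.10. Of 19 further SWI/SNF subunits 12 lay above 0 and 7 below, with the paralogues Bicra and Bicral at 0.31 ± 0.23 and -0.24 ± 0.15. Histone acetyltransferases were split 6 to 8, with Ep300 at 0.18 ± 0.13 and Hat1 at -0.35 ± 0.34, and acetyl-lysine readers 4 to 5, with Mllt1 at -0.23 ± 0.15 and Yeats4 at -0.44 ± 0.24. None of these differences had an unadjusted limma p under 0.05.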

How the data were processed

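Whole-pancreas RNA libraries from 8 mice, 4 per genotype, were compared. Reads were aligned with STAR 2.6.0b to GRCm38 and normalized with DESeq2, per the submitters' processing notes; no source used here names their read counter or annotation. The deposited table holds a normalized signal per gene, reads divided by a size factor: multiplied back by that factor, 100% of values were whole within 0.001. The main test was limma 3.58.1 with trend (R 4.3.3) on log2(normalized count + 1), genotype as the only term, over genes with a mean of at least 10, with Benjamini-Hochberg adjustment and a threshold of 0.05; the pseudocount understates changes of low genes. Differences are Daxx-deleted minus wild type, given ± limma's standard error for single genes. Single genes also got an exact permutation test over 70 relabellings. On the recovered reads, edgeR 4.0.16 called 0 genes and DESeq2 1.42.0 called 1. The fits were tested on simulated data. Exon lengths, GC content (longest coding transcript) and coordinates came from GENCODE M21 (GRCm38), with all 61 member IDs matched. Overlap of members with other listed genes was checked on the same strand and none was found. Genes not listed and the opposite strand were not checked.

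The members, gene lists and tests were chosen with earlier results of these data known. Named genes were Daxx, in each role the 3 members of smallest unadjusted p and the highest in level, members whose genotypes did not overlap, paralogue pairs, the 2 genes of smallest p in each partner list, and genes with a library set apart by Dixon's test. Alternatives were pseudocounts of 0.5 and 8, a floor of 50, other scalings (TMM, equal totals, quantile), array weights, no floor, a threshold of 0.10, robust moderation, a Y-linked covariate, edgeR, DESeq2, leaving out each library, and, chosen after seeing the data, removal of each library's trend on GC content (lowess, span 0.3) and leaving out both GC-rich libraries.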

Additional observations from a re-analysis of the deposited data

Results flagged for a closer look

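Dixon's test was run on 168 groups of 4 libraries (Daxx, the members and the named partner genes in each genotype). It set apart 1 library in 5 groups, where chance alone gives about 1 in 20, or 8.4. Wild-type library 2 had 61.3 normalized counts of Smarcd1, a SWI/SNF subunit, where the other wild-type libraries had 34.1 to 37.2. The same library had 2.61 of Smarca1, against 11.7 to 13.3. Daxx-deleted library 1 had 17.5 of Hdac8, against 24.1 to 24.99 in the other deleted libraries. Wild-type library 3 had 264 of Paxip1, a COMPASS partner, against 158 to 175. Wild-type library 4 had 118 of Mta2, a NuRD subunit, against 156 to 160.4.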

How the results depend on the processing

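No member was called under any of 23 alternatives. The number of genes called over the whole table was 1 in place of 0 with equal library totals, robust moderation, the Y-linked covariate and DESeq2, and 0 to 1 when each library was left out (1 without Daxx-deleted library 2). With equal library totals the median member log2 difference was 0.10 in place of -0.024, with 54 of 61 members above 0 in place of 28. Under that scaling the median over all tested genes was itself 0.11, and 29 members lay above it, as in the main scaling. The number of members whose genotypes did not overlap was 0 with equal totals (3.26% of all genes), quantile scaling (1.86%) and GC trend removal (2.53%). It was 1 to 4 when each library was left out (3.72% to 5.34%), the 4 without wild-type library 2, and 4 without that library and Daxx-deleted library 3 (8.41%). Equal totals turned the sign of Kmt2e (0.047), Kmt5b (0.020), Setd5 (0.069), Hdac2 (0.016), Hdac4 (0.00040), Chd4 (0.047), Chd2 (0.044), Smarcc1 (0.027), Smarce1 (0.0081) and Nsd1 (0.094). Leaving out each library gave -0.12 to 0.0095 for Kmt2e and -0.36 to 0.029 for Smarca5, and for 4 genes that kept their sign 0.14 to 0.88 (Smarca1), 0.067 to 0.56 (Kmt5c), 0.22 to 0.59 (Setd1b) and -0.55 to -0.21 (Paxip1). Without wild-type library 2 and Daxx-deleted library 3 together, Setd5 (0.0041), Hdac10 (0.049) and Smarca1 (-0.075) turned. The cause was not tested. Of 47 single genes followed, Daxx included, those not named here as turning kept their direction wherever tested. Hdac7 and Smarcad1, not among them, were above 0 with limma (0.081 and 0.045) and below with edgeR (-0.050 and -0.040). A floor of 50 left Daxx and some low members untested. No paired analysis was possible because the labels carry no replicate numbers. Depth limits low members: Smarca1, Smarcd3 and Chd5 rest on few reads, and 13 of 61 intervals reach past 1.5-fold.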
